A study of Mus musculus with 6 samples.

Results

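The aryl hydrocarbon receptor (AhR) pathway was followed in RNA of lung endothelial cells (ECs) through 7 genes, Ahr, Arnt, Ahrr, Tiparp, Cyp1a1, Cyp1b1 and Nqo1, of 24063 gene symbols in the deposited tables. These genes were listed because Cyp1a1 had one of the lowest fold changes after pneumonectomy, so their values in that comparison are given as a description. No p-value of a single member is printed for it, and counts of members that passed thresholds are part of the description. Each member was found by its symbol, and all 7 passed the filter on low counts. The ECs had been taken with anti-CD31 conjugated magnetic beads from lungs of male C57BL6 mice, either sham-operated or 7 days after PNX (pneumonectomy on 1 side, an operation that takes out a lung and is followed by growth of what remains). The labels give an age of 8 weeks for both groups, and the methods of the study an older one. There were 3 libraries per group, each from the pooled cells of 2 mice, and the labels name no transgene or drug for either group.

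AhR is a transcription factor of the basic helix-loop-helix PAS class that waits in the cytoplasm with HSP90 and other chaperones. When a small aromatic molecule binds, it moves to the nucleus, pairs with ARNT and binds DNA at the core letters GCGTG. CYP1A1 and CYP1B1, monooxygenases of the CYP1 family that oxidize many of the same ligands, are its best known targets. AHRR, which competes for ARNT, and TIPARP, an ADP-ribosyltransferase that acts on AhR, are induced by AhR and limit it. NQO1, a quinone reductase, is shared with the oxidative stress factor NRF2. Lung ECs are known for strong induction of CYP1A1 by AhR ligands.

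The promoters of Cyp1a1 and Cyp1b1 are shown because the levels of these 2 targets differed in opposite directions after PNX, and that of Ahrr because it is the richest of the set in the AhR core. The sequences are those of RefSeq on GRCm38.p6, the 250 bases before the start that this table gives each gene, 5′ to 3′ on the strand of the gene, with GCGTG or its reverse complement CACGC in capitals.
Cyp1a1, plus strand, chr9:57697363-57697612: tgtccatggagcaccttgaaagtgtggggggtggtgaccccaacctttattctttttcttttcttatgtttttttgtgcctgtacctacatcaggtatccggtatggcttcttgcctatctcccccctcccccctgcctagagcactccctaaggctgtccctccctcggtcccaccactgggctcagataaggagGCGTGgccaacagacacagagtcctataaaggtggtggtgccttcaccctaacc
Cyp1b1, minus strand, chr17:79715062-79715311: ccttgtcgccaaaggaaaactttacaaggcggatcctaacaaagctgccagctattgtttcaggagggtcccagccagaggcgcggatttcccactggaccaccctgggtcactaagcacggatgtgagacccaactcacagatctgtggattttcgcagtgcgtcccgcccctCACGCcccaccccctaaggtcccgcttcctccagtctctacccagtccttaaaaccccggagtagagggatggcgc
Ahrr, minus strand, chr13:74292332-74292581: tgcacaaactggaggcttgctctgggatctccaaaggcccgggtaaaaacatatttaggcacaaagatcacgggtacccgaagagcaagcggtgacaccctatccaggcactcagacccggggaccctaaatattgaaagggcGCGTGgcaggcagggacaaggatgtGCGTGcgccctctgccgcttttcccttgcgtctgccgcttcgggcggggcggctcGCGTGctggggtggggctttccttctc

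Of the 6 members with an entry in the promoter table, 5 held the letters GCGTG on one strand or the other in these 250 bases. The same letters stood in 28.2% of 32851 promoter windows of this length. Cyp1a1 had 1 match, beginning 54 bases before the start and on the strand of the gene, and Cyp1b1 had 1 on the opposite strand, beginning 76 bases before it. Ahrr had 3 matches, at 107, 82 and 27 bases before the start. The longer form TNGCGTG, which contains the core, was found in these 250 bases in Ahrr alone of the 6, against 4.1% of all windows. Sequence further upstream was not searched. Tiparp and Arnt had 1 core match each, and Nqo1 had none. TATAAA, searched on both strands, began 30 bases before the start of Cyp1a1 and 29 bases before that of Nqo1, and stood in 12.4% of all windows. These matches describe letters and were not tested for binding.

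The 6 libraries did not carry equal weight. Total counts were between 29526989 and 81282871 per library. Replicates 1 and 2 of each group, whose labels say that they duplicate older records (the earlier deposit), differed by little more than counting error, with a chi-square per degree of freedom of 1.75 in sham and 1.57 in PNX. Replicate 3, the later deposit, differed from them with a chi-square per degree of freedom of 67.9 to 86.4. Replicates 1 and 2 were therefore summed, which left n = 2 samples per group, and the members' values are also given by library or by deposit. The labels do not say how the deposits differ. Endothelial markers were high throughout, with Pecam1, which encodes the CD31 used for the isolation, between 2038 and 2495 CPM (counts scaled to a common library size, with TMM factors) in the 6 libraries.

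Levels of different genes were compared per length of transcript, in TPM, the length-scaled abundance that the authors deposited. Arnt and Cyp1a1 each have 2 RefSeq transcripts with nearly the same count in every library, so 1 transcript of each was used for the order of levels. In sham, Ahr was highest at 64.5 ± 5.63 TPM (SD, n = 2 samples, as for the other TPM values). It was followed by Arnt at 34.9 ± 0.632 TPM and Tiparp at 29.2 ± 7.66 TPM, which did not differ beyond their spread. Cyp1a1 stood at 16.3 ± 0.499 TPM, Nqo1 at 4.97 ± 0.654 TPM, Cyp1b1 at 1.16 ± 0.255 TPM and Ahrr at 0.236 ± 0.109 TPM. The repressor Ahrr was thus nearly absent from sham ECs, while the receptor was the most abundant of the 7. With the TPM of both transcripts summed, Arnt would stand at 70.1 ± 1.28 and Cyp1a1 at 32.1 ± 0.975 TPM, which puts Arnt next to Ahr and Cyp1a1 next to Tiparp, in both cases within the spread.

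After PNX, the order among the targets was different. Ahr at 50.9 ± 5.81 TPM, Arnt at 33.5 ± 0.873 TPM and Tiparp at 28.0 ± 4.71 TPM remained highest. They were followed by Cyp1b1 at 7.97 ± 2.19 TPM and Nqo1 at 7.10 ± 1.96 TPM, which did not differ beyond their spread, then by Cyp1a1 at 4.10 ± 0.703 TPM and Ahrr at 0.221 ± 0.0685 TPM. With both transcripts summed, Cyp1a1 would stand at 8.07 ± 1.38 TPM, not apart from Cyp1b1 and Nqo1 beyond the spread, and Arnt at 67.2 ± 1.75 TPM, above Ahr.

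Cyp1a1 lies on chromosome 9 of GRCm38 from 57687928 to 57703824, on the plus strand, with no overlapping gene in GENCODE vM21. That span begins with a longer transcript, and the start used for the promoter above, 57697613, lies 9685 bases inside it, where another GENCODE transcript begins. Counted on 1 of its transcripts (NM_001136059), the counts in the order of replicates 1, 2 and 3 were 1409, 1215 and 564 for sham, and 354, 326 and 111 for PNX. The other transcript (NM_009992) had counts within 2 of these in every library, and the sum of both was used for the fit. Its level was 34.9, 33.9 and 33.5 CPM in the sham libraries and 9.51, 9.94 and 7.44 CPM in the PNX libraries. The 3 sham libraries lay close together and far above all 3 PNX libraries. Sham averaged 34.1 ± 1.20 CPM and PNX 8.59 ± 1.51 CPM (SD over n = 2 summed samples), 3.95-fold lower, with an edgeR log2 fold change of -1.98 ± 0.19 (standard error). Within the earlier deposit the level was 3.61 times lower (exact 95% interval 3.32 to 3.94) and within the later deposit 4.41 times lower (3.60 to 5.46), where the intervals cover counting error only. By this fold change, which led to the choice of these genes, Cyp1a1 ranked 37 from the lowest of all 16598 genes tested and 8 from the lowest of the 14290 with a mean count of at least 50. In bulk RNA, fewer cells of a type and less RNA per cell cannot be told apart.

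Cyp1b1, on the minus strand of chromosome 17 from 79701537 to 79715061 and also without an overlapping gene, differed in the other direction. Its single transcript (NM_009994) had 170, 134 and 93 counts in sham and 997, 865 and 574 after PNX. The level was 2.11, 1.87 and 2.76 CPM in sham replicates 1, 2 and 3, and 13.4, 13.2 and 19.2 CPM in the PNX replicates. Every PNX library lay above every sham library, and in both groups replicate 3 was the highest. Sham averaged 2.38 ± 0.506 CPM and PNX 16.3 ± 4.39 CPM (SD over n = 2 summed samples), 6.92-fold higher, with an edgeR log2 fold change of 2.79 ± 0.30 (standard error). The ratio was 6.54 in the earlier deposit (exact 95% interval 5.79 to 7.41, counting error only) and 7.10 in the later one (5.70 to 8.94). Cyp1b1 ranked 162 from the highest of all genes tested and 101 among those with a mean count of at least 50.

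The ratio of the 2 CYP1 genes within a library needs no scaling between libraries. Per length and on 1 Cyp1a1 transcript, Cyp1a1 was 16.2, 17.7 and 11.9 times as abundant as Cyp1b1 in sham replicates 1, 2 and 3. After PNX the ratio was 0.695, 0.737 and 0.378. Which of the 2 genes was higher after PNX depends on that choice: with the TPM of both Cyp1a1 transcripts summed, the ratio was 31.9, 34.96 and 23.4 in sham and 1.37, 1.45 and 0.746 after PNX. By either value the ratio was lower in all 3 PNX libraries than in any sham library. On 1 transcript, Cyp1a1 made up between 92.2% and 94.7% of the summed TPM of both genes in the sham libraries, and between 27.4% and 42.4% in the PNX libraries, and with both transcripts summed between 95.9% and 97.2% and between 42.7% and 59.2%. The sum itself, on 1 transcript, was between 17.3 and 17.9 TPM in sham and between 11.0 and 13.1 TPM after PNX, so the difference in Cyp1a1 TPM was larger than that in Cyp1b1 TPM.

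**Figure D1:**
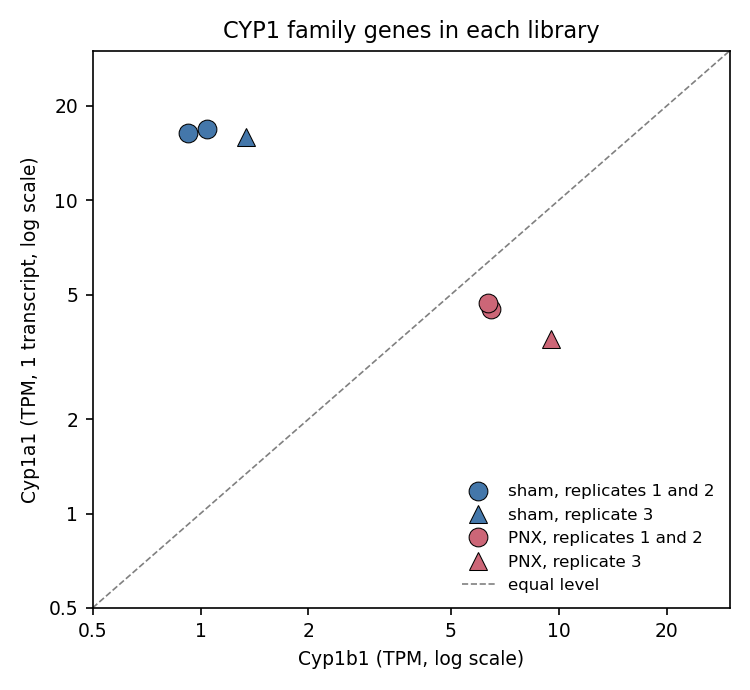
Cyp1a1 (1 transcript) against Cyp1b1 in each of the 6 libraries, in TPM on log axes. Circles are replicates 1 and 2 and triangles replicate 3 of each group, and the dashed line marks equal levels. The 3 sham libraries lie above the line, with ratios between 11.9 and 17.7, and the 3 PNX libraries lie below it, between 0.378 and 0.737; with both Cyp1a1 transcripts summed, PNX replicates 1 and 2 would lie above it, at 1.37 and 1.45.

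The receptor differed less. Ahr (minus strand of chromosome 12, 35497974 to 35535038) had 12126, 10523 and 4494 counts in sham replicates 1, 2 and 3 and 9211, 7883 and 3022 after PNX. This was 150.5, 146.9 and 133 CPM against 124, 120.2 and 101 CPM, so all PNX libraries lay below all sham libraries, although PNX replicate 1 and sham replicate 3 were near each other. Sham averaged 142 ± 13.0 CPM and PNX 112 ± 13.5 CPM (SD over n = 2 summed samples), with a log2 fold change of -0.34 ± 0.16 (standard error). The level was 1.24 times lower in the earlier deposit (exact 95% interval 1.22 to 1.26) and 1.29 times lower in the later one (1.23 to 1.35). An exon of Ahr overlaps one of a lincRNA annotated on the other strand (Gm48236), and no source says whether strand was used in counting. Arnt, the partner of AhR and of the hypoxia-inducible factors (plus strand of chromosome 3, 95434388 to 95497240), was at 120.3, 123.4 and 120.6 CPM in the sham libraries and 116.4, 115.5 and 117.4 CPM in those after PNX. The groups did not overlap, but the log2 fold change was -0.05 (standard error 0.12), and within the later deposit the ratio was 0.992 (exact 95% interval 0.930 to 1.06).

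The AhR-induced repressors showed no such difference. Tiparp (plus strand of chromosome 3, 65528410 to 65555518) was at 40.1, 38.0 and 57.7 CPM in the sham libraries and 41.4, 41.5 and 51.4 CPM in those after PNX. The groups overlapped, and replicate 3 was highest in both. The ratio was 1.04 in the earlier deposit (exact 95% interval 1.00 to 1.08) and 0.907 in the later one (0.848 to 0.971), opposite in direction. An exon of Tiparp overlaps a pseudogene annotated on the other strand (4931440P22Rik). Ahrr (minus strand of chromosome 13, 74211118 to 74292331) had 22, 23 and 20 counts in sham and 23, 23 and 15 after PNX. Over all libraries the ratio was 1.02 with an exact 95% interval of 0.705 to 1.46, which covers counting error only. The log2 fold change of Ahrr was -0.07 (standard error 0.55). Differences in Ahrr within either spread were not detectable at this depth and number of samples.

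Nqo1 (minus strand of chromosome 8, 107388225 to 107403206) was low and somewhat higher after PNX. It had 222, 199 and 114 counts in sham and 269, 233 and 155 after PNX, or 2.75, 2.78 and 3.39 CPM against 3.62, 3.55 and 5.20 CPM. The groups did not overlap, but sham replicate 3 came close to PNX replicate 2. The log2 fold change was 0.51 (standard error 0.30), and it was 0.22 when PNX replicate 3 was left out. The ratio was 1.27 in the earlier deposit (exact 95% interval 1.12 to 1.45) and 1.56 in the later one (1.22 to 2.01).

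**Figure D2:**
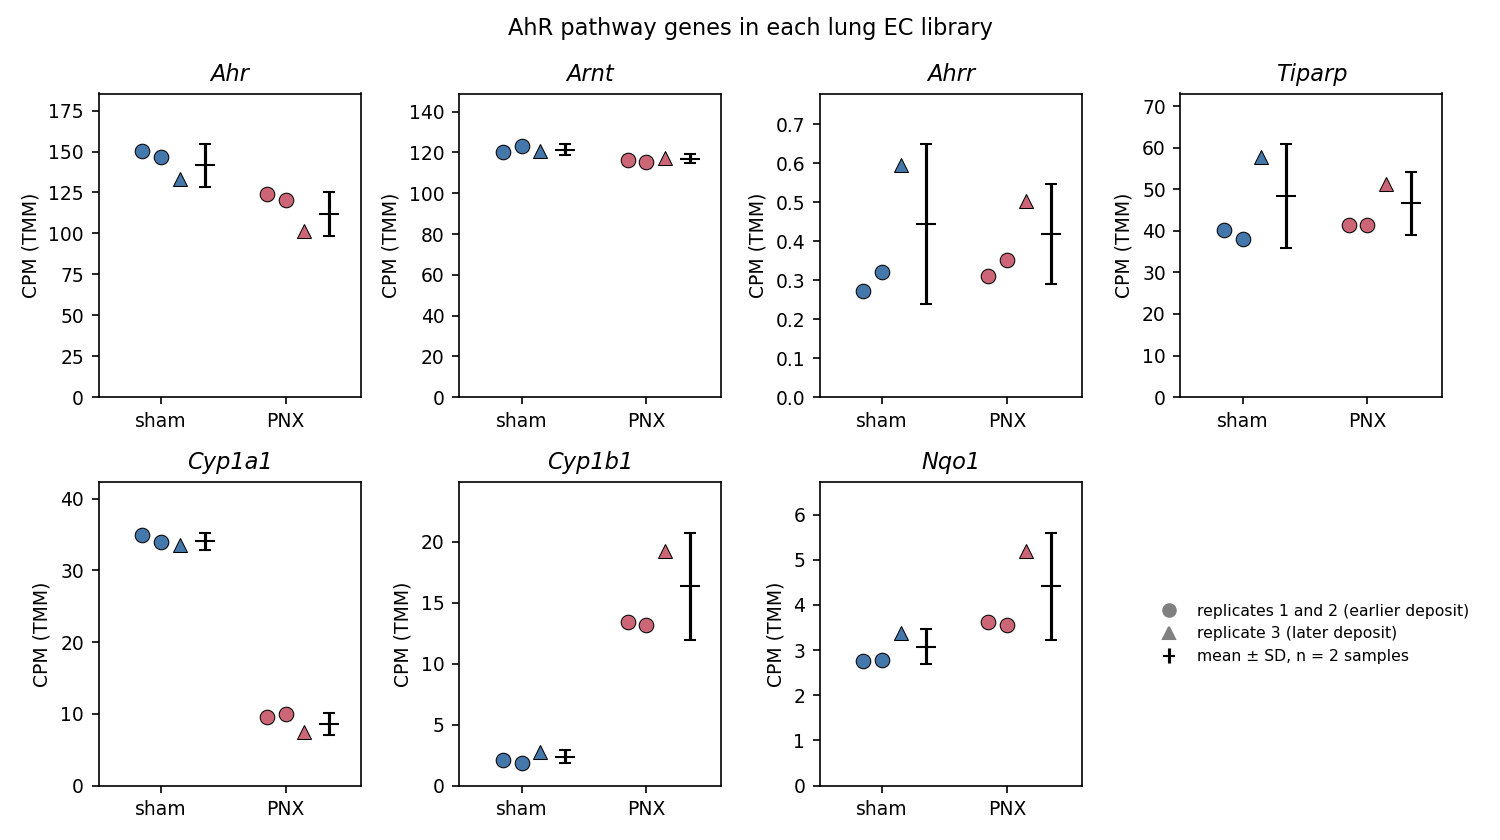
Level of the 7 AhR pathway genes in each library, in CPM scaled by TMM, with axes from 0. Circles are replicates 1 and 2, triangles replicate 3, and black bars the mean ± SD of n = 2 samples per group; Cyp1a1 lies between 33.5 and 34.9 CPM in sham and between 7.44 and 9.94 CPM after PNX, and Cyp1b1 between 1.87 and 2.76 CPM and between 13.2 and 19.2 CPM.

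**Figure D3:**
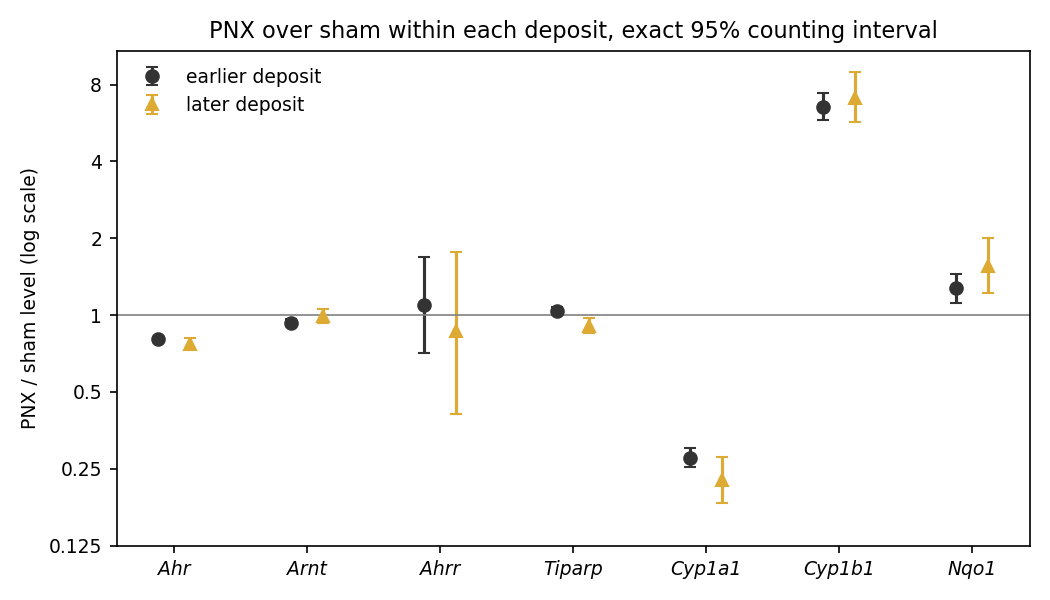
Ratio of the PNX to the sham level (log axis) of each gene within the earlier and the later deposit, with exact 95% intervals that cover counting error only; Arnt and Cyp1a1 are counted on 1 transcript. Cyp1a1 lies at 0.277 and 0.227 and Cyp1b1 at 6.54 and 7.10, while the other 5 genes lie between 0.774 and 1.56.

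Calls needed both thresholds that the study used, an adjusted p below 0.01 and a log2 fold change beyond 1 in either direction. With 4 samples and no block, edgeR's quasi-likelihood test called 0 of the 7 genes (2 had an unadjusted p under 0.05), and 0 of 16598 genes tested (0.0%), of which 2076 were under the same unadjusted level. On these samples limma-voom also called 0 genes of all, and DESeq2 called 587. With the deposit as a replicate block 2 of the 7 were called, Cyp1b1 higher and Cyp1a1 lower, where 5.12% of all genes were called (3.89% higher and 1.23% lower). With the 6 libraries as separate replicates the same 2 were called, against 2.51% of all genes. For 5 of the 7 the 3 PNX libraries lay on one side of the 3 sham libraries, 2 above and 3 below, as they did for 36.7% of all genes tested (18.8% above and 17.9% below). Because Cyp1a1 was chosen on this comparison, these counts are a description.

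The difference between deposits was not used in choosing these genes. In the fit with group and deposit, 0 of the 7 genes passed the same thresholds between the later and the earlier deposit, against 3.31% of all genes (edgeR). Ahrr had the largest log2 difference of the 7, 0.81 ± 0.37 (standard error, edgeR adjusted p = 0.153). Tiparp was higher in the later deposit by 0.43 (standard error 0.09, edgeR adjusted p = 0.0134) and Cyp1b1 by 0.51 (standard error 0.13, edgeR adjusted p = 0.0266). Cyp1a1 differed by -0.20 (standard error 0.11, edgeR adjusted p = 0.212).

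Around these genes, 59 others of the pathway were followed in 7 lists written from general knowledge, of which 55 passed the filter on low counts. With 4 samples and no block, 0 of the 55 were called by edgeR and 9 had an unadjusted p under 0.05, while DESeq2 called 2. With the replicate block 3 of 55 were called, 2 higher and 1 lower, which is close to the 5.12% called over all genes. The median log2 fold change of the 55 was 0.01, beside -0.01 for all genes.

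Among 12 tested genes of the AhR battery and other known targets, 0 were called higher and 1 lower with the block. This was Aldh3a1, an aldehyde dehydrogenase, at 4.04, 3.99 and 7.13 CPM in the sham libraries and 1.67, 1.86 and 2.35 CPM in those after PNX. Its log2 fold change was -1.37 with the block (standard error 0.18, edgeR adjusted p = 0.00249) and -1.44 without it (edgeR adjusted p = 0.234). The median of the 12 was 0.33, and 7 of them lay above 0. Some battery genes were named here after their values were seen. Cyp1a2, the liver member of the CYP1 family, had at most 2 counts in any library and was not tested. Ugt1a6a and Ugt1a6b are glucuronosyltransferases that share exons, so their counts are uncertain. With the block their log2 fold changes were 0.94 and 0.96, just under the threshold (edgeR adjusted p = 3.92e-04 and 3.90e-04). Without it the edgeR adjusted p were 0.57 and 0.58, and the groups overlapped for both genes. Xdh and Cyp2s1 had log2 fold changes in the other direction, -0.51 and -0.52 with the block (edgeR adjusted p = 0.00701 and 0.00753). Serpinb2, a protease inhibitor, differed by 3.95 on the log2 scale in the earlier deposit and by 1.17 in the later one (2.62 with the block, edgeR adjusted p = 0.0188).

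Of 12 tested NRF2 target genes, to which Nqo1 is related by regulation, 1 was called higher with the block and 0 lower, with a list median of 0.13. This was Hmox1, heme oxygenase 1, at 26.8, 26.6 and 45.9 CPM in the sham libraries and 79.1, 77.6 and 88.9 CPM in those after PNX (log2 fold change 1.26 with the block, standard error 0.13, edgeR adjusted p = 8.75e-04, and 1.21 without it, adjusted p = 0.196). The subunits of glutamate-cysteine ligase, Gclc and Gclm, were among the 11 that were not called.

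The genes that hold, pair with or supply AhR were for the most part not called. Of the 4 chaperone genes of the AhR complex 0 were called, with log2 fold changes between -0.04 and 0.26, and the most abundant were Hsp90ab1 (0.17) and Hsp90aa1 (0.26). Of 6 related basic helix-loop-helix PAS factors, 1 was called higher with the block, Arnt2, a relative of Arnt, at 0.298, 0.405 and 1.63 CPM in the sham libraries and 1.24, 1.02 and 3.62 CPM in those after PNX. These values overlapped between the groups and were higher in replicate 3 of both. Its log2 fold change was 1.43 with the block (standard error 0.26, edgeR adjusted p = 0.00921). That call was lost with the block and another scaling, at an edgeR adjusted p of 0.0191 with DESeq2's size factors. Without the block the log2 fold changes of the 6 factors lay between -0.56 and 1.33, with 3 above 0. The groups did not overlap for Hif1a (0.43), Epas1 (-0.56) and Clock (-0.25). These were not called with the block and were named after their values were seen. Of 10 coregulators 0 were called, the most abundant being Klf6 (log2 fold change -0.16) and Nfe2l2, which encodes NRF2 (-0.14). Of 7 tested enzymes that form AhR ligands from tryptophan or act on that path 0 were called, with Kynu (0.22) and Kmo (-0.15) the most abundant. The log2 fold changes of the 7 lay between -0.67 (Ido1) and 1.14 (Tdo2, at most 1.51 CPM in any library), with 2 above 0. The groups did not overlap for Ido1 and Tdo2, which were named after their values were seen. Of 4 genes for electron donors of P450 enzymes 0 were called, the most abundant being Cyb5r3 (0.15) and Cyb5b (-0.10). The P450 reductase gene Por, named after its values were seen, was at 136, 138 and 128 CPM in the sham libraries and 97.4, 97.8 and 89.1 CPM in those after PNX, which with the block is a log2 difference of -0.50 ± 0.08 (with its standard error, edgeR adjusted p = 0.00500) and below the threshold on size.

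**Figure D4:**
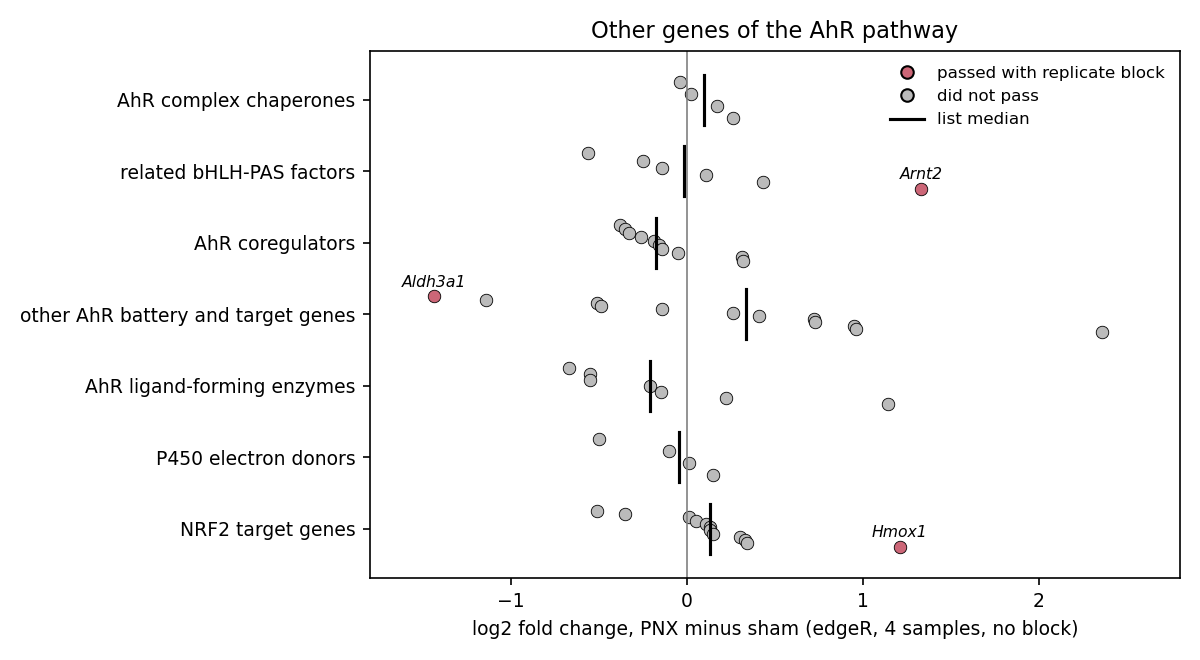
Log2 fold change (PNX minus sham, edgeR, 4 samples, no block) of the 55 tested genes in 7 lists around AhR, 1 point per gene, with list medians as vertical bars. Named red points are the 3 genes that passed both thresholds with the replicate block; list medians lie between -0.21 and 0.33.

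Markers of other lung cells in the EC preparations differed between the groups as well, and their part in the values of Cyp1a1 and Cyp1b1 was not tested. With Cyp1b1, 5 of 10 fibroblast markers were called higher with the replicate block, which called 3.89% of all genes higher and 1.23% lower. The summed level of the fibroblast markers was between 1126 and 1371 CPM in sham and between 2991 and 3674 CPM after PNX. Col1a1, a collagen chain, was at 123, 126 and 182 CPM in the sham libraries and 626, 632 and 1020 CPM in those after PNX, whereas Pdgfra, Tcf21 and Col13a1 had log2 fold changes of -0.45, -0.23 and -0.38. Mesothelial markers were called higher in 4 of 4 (74.0 to 269.9 CPM in sham and 221 to 689 CPM after PNX) and macrophage markers in 3 of 7 (340 to 731 CPM and 833 to 1077 CPM). Of 8 smooth muscle and pericyte markers 0 were called, with a median log2 fold change of 0.01 and summed levels of 452 to 592 CPM in sham and 415 to 581 CPM after PNX. With Cyp1a1, 5 of 5 club cell markers were called lower (2473 to 4520 CPM in sham and 1152 to 1204 CPM after PNX), as were 3 of 6 alveolar type 2 markers (4923 to 5509 CPM and 1917 to 3204 CPM) and 1 of 4 alveolar type 1 markers (1715 to 4392 CPM and 640.3 to 3248 CPM). In sham replicates 1, 2 and 3, summed club cell markers were at 2473, 2480 and 4520 CPM. Alveolar type 2 markers were at 4923, 4943 and 5509 CPM and alveolar type 1 markers at 4333, 4392 and 1715 CPM. Cyp1a1 was at 34.9, 33.9 and 33.5 CPM in the same libraries, and Cyp1b1 at 2.11, 1.87 and 2.76 CPM. There summed fibroblast markers were at 1126, 1128 and 1371 CPM, mesothelial markers at 74.0, 76.0 and 269.9 CPM and macrophage markers at 345, 340 and 731 CPM. Replicate 3 is 1 library of the later deposit, and a relation between these values was not tested. Of 10 endothelial markers 0 were called, with a median log2 fold change of -0.16 and summed levels of 9267 to 11279 CPM in sham and 8420 to 9550 CPM after PNX. T cell and B cell markers were not called (0 of 4 in both), but 0 of 4 in both lists had a log2 fold change above 0. Their medians were -0.73 for T cell and -0.92 for B cell markers. Summed B cell markers were at 81.3 to 96.6 CPM in sham and 45.2 to 49.7 CPM after PNX. Summed T cell markers were at 30.6 to 61.1 CPM and 24.2 to 45.5 CPM. Of 3 tested adipocyte markers 1 was called higher. Some lists differed between the deposits too, where 3.31% of all genes were called. There 4 of 10 fibroblast, 4 of 4 mesothelial, 4 of 4 alveolar type 1, 2 of 7 macrophage and 2 of 4 T cell markers were called. No marker of these lists was at 0 in all libraries.

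**Figure D5:**
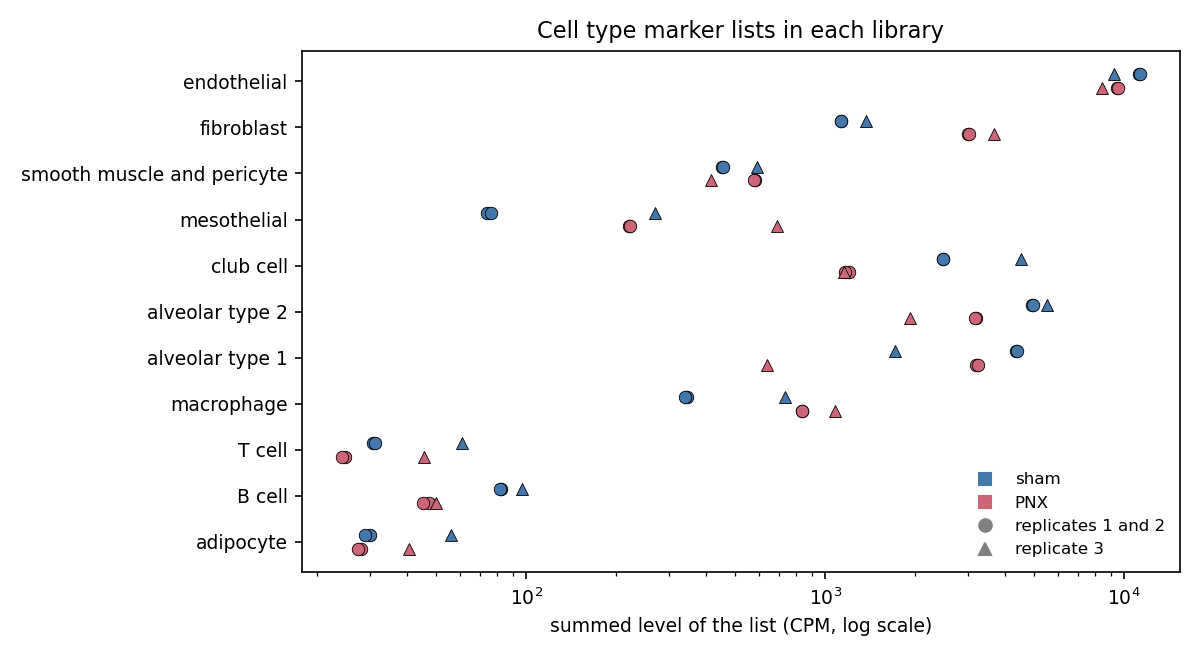
Summed level of each cell type marker list in the 6 libraries, in CPM on a log axis, with circles for replicates 1 and 2 and triangles for replicate 3. Fibroblast markers lie higher in all 3 PNX libraries (2991 to 3674 CPM, against 1126 to 1371 CPM), club cell markers lower (1152 to 1204 CPM, against 2473 to 4520 CPM).

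The genes whose pattern over the 6 libraries was most like that of the 2 CYP1 genes were found by the Euclidean distance between centred log2 CPM values among 11630 genes with a mean of at least 5 CPM. Nearest to Cyp1a1 were Cyp2a5 (distance 0.338), Pon1 (0.485), Esm1 (0.579), Colq (0.603) and Igfbp3 (0.760). Cyp2a5, another P450, was at 9.94, 9.14 and 11.3 CPM in the sham libraries and 3.19, 3.41 and 2.18 CPM in those after PNX. Esm1, a gene of endothelial tip cells, was at 18.7, 17.9 and 15.7 CPM in the sham libraries and 4.28, 4.06 and 5.10 CPM in those after PNX. Nearest to Cyp1b1 were Cenpe (0.181), Mastl (0.189), Ect2 (0.216), Col5a3 (0.229) and E2f7 (0.234). Cenpe, a motor protein of the kinetochore, was at 3.85, 3.53 and 5.44 CPM in the sham libraries and 25.5, 25.7 and 32.5 CPM in those after PNX. Col5a3, a collagen chain, was at 4.54, 3.96 and 6.74 CPM in the sham libraries and 32.1, 31.6 and 47.8 CPM in those after PNX. These distances are a description over 6 libraries, of which replicates 1 and 2 of a group are nearly the same.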

How the data were processed

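RNAseq of lung ECs was analysed from 6 libraries (3 sham, 3 PNX), grouped by their titles. The authors aligned the reads to mm10 (STAR is named in the submitters' processing notes) and deposited, for 33068 RefSeq transcripts, the raw count, FPKM and TPM. The counting rule and the release of the annotation were not given in the sources read. The deposited counts entered the tests after summing per symbol. The TPM deposited by the authors served only for levels between genes, and the deposited FPKM was not used further. Of 12313 transcripts that share a symbol and had over 50 counts, 2577 were identical in all libraries to a second transcript under that symbol. Summed counts of such genes may therefore count reads more than once, and intervals used 1 transcript.

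Replicates 1 and 2 were summed (n = 2 per group, 4 samples), because they differed by little more than counting error. The design text calls each library a pool of 2 mice, but p-values here measure only the spread between these samples, which may be technical. The test was edgeR's quasi-likelihood F test (edgeR 4.0.16, R 4.3.3), after filterByExpr and TMM, with Benjamini-Hochberg adjustment over all genes and with DESeq2 1.42.0 and limma 3.58.1 as alternatives. Standard errors are the absolute log2 fold change over the root of F. Samples pair by deposit, from the labels, and the deposit differences of sham and of PNX went together over 13159 genes (r = 0.767 by Pearson and rho = 0.761 by Spearman, across genes, which are not independent). The replicate block leaves 1 residual degree of freedom. Fits were checked on simulated counts with known changes: all recovered their size and sign, but edgeR without the block and limma-voom called none of them, so a count of 0 from these fits does not show that genes did not differ. Exact intervals are Clopper-Pearson at 95% on the PNX share of counts, scaled by the library sizes of the 4 samples with their TMM factors. An exact two-sided permutation test of 2 samples against 2 cannot go below p = 0.333. Members and lists were chosen with earlier results of these data known. From each list, genes called with or without the block were named, or otherwise the 2 most abundant, and the 5 nearest genes to Cyp1a1 and Cyp1b1. Of the listed symbols 3 were found under an older symbol, and Muc16 was not analysed here.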

Additional observations from a re-analysis of the deposited data

How the results depend on the processing

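The number of genes called between PNX and sham moved with the tool, the block and the use of replicates 1 and 2. Against 0 with 4 samples and no block, 587 were called by DESeq2, 849 with the replicate block, 409 with 6 libraries and no replicate block and 920 with 6 libraries and the replicate block. In alternatives chosen after seeing the data, the replicate block gave 624 calls with DESeq2's size factors (540 higher and 84 lower, beside 645 and 204 with TMM), 629 with library size alone (550 and 79) and 726 with the highest transcript. It gave 671, 668, 485 and 863 without sham replicate 1, sham replicate 2, PNX replicate 1 and PNX replicate 2. Without the block, leaving out 1 library gave between 0 and 2 calls, the 2 without PNX replicate 3. Of the 7 members, 2 were called under DESeq2, with 6 libraries and in every fit with the replicate block. Of the 55 pathway genes, DESeq2 called 2, and the replicate block called 3 with 4 samples, with 6 libraries and without PNX replicate 2. With the block, 2 were called under each of the other scalings, with the highest transcript and without sham replicate 1 or 2, and 0 without PNX replicate 1, where Hmox1, Aldh3a1 and Arnt2 had edgeR adjusted p of 0.0103, 0.0164 and 0.0288. The causes were not tested.

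Over 22 alternatives the log2 fold change stayed between -2.0 and -1.82 for Cyp1a1, 2.49 and 3.02 for Cyp1b1, 0.22 and 0.65 for Nqo1, -0.41 and -0.22 for Ahr and -0.07 and -0.04 for Arnt. It lay on both sides of 0 for Ahrr (-0.37 to 0.43) and Tiparp (-0.23 to 0.24). Ahrr, with 15 to 23 counts per library, is limited by depth. With both Cyp1a1 transcripts summed, an alternative also chosen after seeing the data, the mean TPM ratio of Cyp1a1 to Cyp1b1 was 28.4 in place of 14.4 in sham and 1.08 in place of 0.547 after PNX. Whether reads were counted on both transcripts or shared between them was not given.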

Other observations

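Set among all P450 genes, a comparison chosen after the values were seen, 36 of 94 genes with a symbol of the Cyp form passed the filter on low counts, with a median log2 fold change of -0.41 (PNX minus sham, 4 samples, no block). Cyp1b1 ranked 1 from the highest and Cyp1a1 ranked 2 from the lowest, after Cyp26b1. Cyp1b1 (2.79, standard error 0.30) and Cyp26a1 (2.74, standard error 0.49) did not differ beyond their errors. With the block their order was reversed, at 2.76 and 2.78. The replicate block called 3.89% of all genes higher and 1.23% lower. Of the 36 P450 genes it called 2 higher, Cyp1b1 and Cyp26a1 (a retinoic acid hydroxylase, at most 0.0837 CPM in any sham library), and 6 lower. The 6 were Cyp1a1, Cyp2a5, Cyp2f2, Cyp4a32, Cyp2b10 and Cyp4b1, of which Cyp2f2 also stands in the list of club cell markers. Cyp26b1 was not called (log2 fold change -5.08 with the block, edgeR adjusted p = 0.0204): it was at 1647 and 1677 CPM in sham replicates 1 and 2, at 123 CPM in sham replicate 3 and at 10.3, 9.97 and 19.9 CPM after PNX.

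Between the deposits, 7 of the 55 tested pathway genes passed the thresholds in edgeR (3.31% of all genes did): Arnt2, Arntl, Npas2, Ugt1a6a, Ugt1a6b, Ereg and Slc7a11.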
